A study of Mus musculus with 2 samples.

Results

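Among the SMRT binding sites listed in mouse liver at both of 2 clock times, 504 scored at least 1.5 times higher in the library labelled ZT10 than in the library labelled ZT22 and are described here. A site was a pair of peaks that overlapped by at least 1 bp, each overlapping exactly 1 peak of the other list. It was included when its ZT10 score was 2.5 or more and at least 1.5 times its ZT22 score. The 504 sites were drawn from 14578 such pairs, of which 4825 had a ZT10 score of 2.5 or more, and made up 10.4% of the latter. The sites were thus chosen by their scores in both lists, and those scores and ranks are given below as a description, with no test.

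SMRT, named for its silencing of retinoid and thyroid hormone receptors, is a corepressor. It does not bind DNA itself but docks on nuclear receptors, and it brings the histone deacetylase HDAC3 to the sites they occupy. In liver the clock repressors of the Rev-erb family recruit HDAC3 through corepressors of this kind at a level that follows the time of day. The study compared the late light phase with the late dark phase.

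The livers came from male C57BL/6 mice aged 12 weeks, untreated and with free access to food, taken at ZT10 (5 pm) or at ZT22 (5 am), where ZT0 is lights on. Each time had 4 mice, whose immunoprecipitates, made separately with 1 anti-SMRT antibody, were combined into a single library. There are therefore 2 libraries and no replicates, and a difference between times, between the pooled animals and between the library preparations cannot be told apart. The tissue was whole liver, so the signal is an average over its cell types. The ZT10 list held 21370 peaks and the ZT22 list 24078, with scores down to 1.0 in both and a depth in reads that is unknown. The deposited list of the library labelled 5 pm, and each peak in it, is named for 5 am, and the reverse holds for the other library. The sample labels are followed here, and every direction below is reversed if the names of the lists and peaks are the correct ones.

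At the 504 sites the ZT10 score had a median of 3.1, from 2.5 to 13.4, and the ZT22 score a median of 1.9, from 1.0 to 8.4. The ZT22 score was below 2 at 286 sites and itself reached 2.5 at 92. The ratio of ZT10 to ZT22 score had a median of 1.65, with quartiles at 1.56 and 1.81 and a highest value of 4.08. It lay below 1.6 at 194 sites, reached 2 at 71 sites, 2.5 at 15 and 3 at 2. Against the 10.4% of strong pairs that met the rule, the same rule with the lists exchanged found 201 pairs, 4.6% of the 4369 pairs with a ZT22 score of 2.5 or more. Over all 14578 pairs, whatever their score, the ZT10 score was at least 1.5 times the ZT22 score at 7.55% and the reverse held at 3.61%. The size of the excess toward ZT10 depended on how scores of the libraries are set against each other, and their scale is unknown. The median ratio of all pairs was 1.04. With ZT22 scores multiplied by this value, 382 of the 504 sites still met the rule, against 284 in the other direction. With ranks made equal among the pairs, 364 did, against 304.

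**Figure D1:**
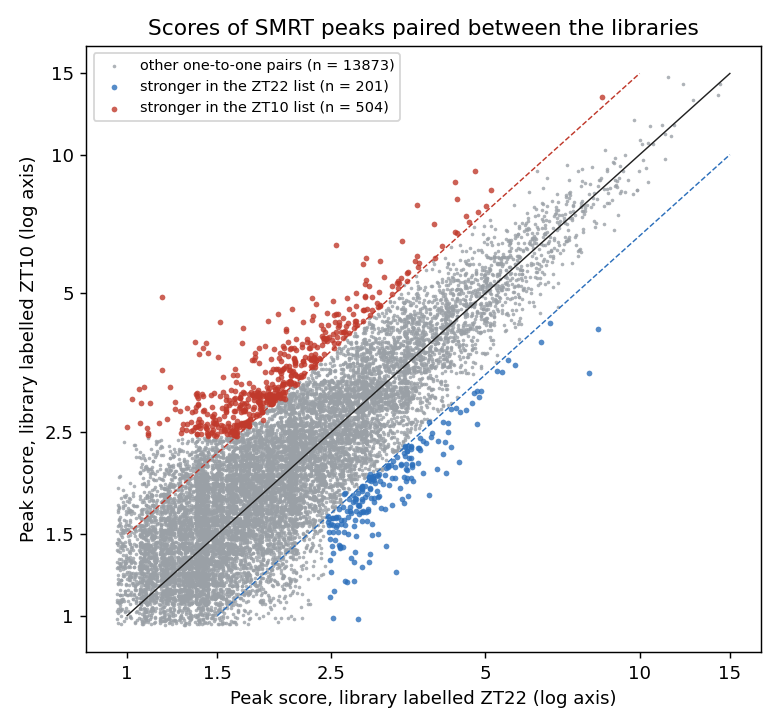
Score of each of the 14578 paired SMRT peaks in the library labelled ZT22 (x axis, log) and ZT10 (y axis, log), 1 point per pair, moved at random within the rounding of the scores. The solid line marks equal scores and the dashed lines a ratio of 1.5; the 504 red sites reach down to a ZT22 score of 1.0, and few of them lie above a ZT10 score of 7.

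The 10 sites with the highest ZT10 scores lay on 9 chromosomes, and all remained among the strongest 6% of ZT22 peaks. The strongest, at chr9:44632355-44632554 (all coordinates in mm8), scored 13.4 at ZT10 (rank 6 of 21370) and 8.4 at ZT22 (rank 56 of 24078). The next, at chr1:55032463-55032662, scored 9.2 and 4.8, and its rank went from 37.5 to 655 (tied peaks share their mean rank). The third, at chr5:139625773-139625972, scored 8.7 and 4.4, with ranks of 52 and 854. After the first site, then, even the strongest members were outside the 500 strongest ZT22 peaks.

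The other seven lay between a ZT10 score of 8.4 and 7.1. The site at chr2:29441579-29441778 scored 8.4 at ZT10 and 5.1 at ZT22, and the site at chr8:73558822-73559021 scored 8.0 and 4.4. The site at chr17:29143292-29143491 had the largest ratio of the 10, with scores of 7.8 and 3.7, and its peak centres lay 1 bp apart. That at chr18:65369653-65369852 followed with 7.7 and 5.0, and there the centres were 66 bp apart. This was the widest offset of the 10, and the other nine were offset by 1 to 32 bp. A second site on chromosome 5, at 135973228 to 135973427, scored 7.5 and 4.8. That at chr16:4879646-4879845 scored 7.4 and 4.6, and chr4:57236105-57236304 scored 7.1 and 4.0. Strong sites of this kind were rare: 40 of the 504 had a ZT10 score of 5 or more.

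The 10 largest ratios belonged to sites with ZT10 scores from 3.0 to 4.9 and ZT22 scores from 1.0 to 1.5. The site at chr11:95640293-95640492 stood apart from the rest, with a ZT10 score of 4.9 and a ZT22 score of 1.2, a ratio of 4.08. Its rank was 704 at ZT10 and 19708.5 at ZT22, although the ZT22 peak lay only 24 bp away. The site at chr16:31868162-31868361 scored 3.0 and 1.0, the lowest score in the ZT22 list. Also on chromosome 16, the site at 18340075 to 18340274 scored 4.3 and 1.5. These 3 had ratios from 2.87 to 4.08, and the other seven of the 10 largest from 2.64 to 2.83.

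Among the latter, the site at chr7:128315289-128315488 scored 3.4 and 1.2. A second on chromosome 7, at 44172868 to 44173067, and one on chromosome 8, at 63398127 to 63398326, both scored 3.1 and 1.1, and at the latter the peaks coincided to the base. Both the chromosome 2 site at 143764983 to 143765182 and the chromosome 6 site at 47765148 to 47765347 scored 3.9 and 1.4. The last of these has a neighbour of the same kind, described below. That at chr4:119037367-119037566 scored 3.8 and 1.4, and chr17:27904869-27905068 scored 3.7 and 1.4, a tie with a site at chr6:108748675-108748874. A score of 1.2 and a score of 1.0 differ by 2 steps of the rounding, so ratios with so low a denominator are coarse. They are also bounded by the list itself: no ZT22 peak in it scored below 1.0, and a site without a ZT22 peak could not enter. Of the 5079 ZT10 peaks with a score of 2.5 or more, 254 overlapped no ZT22 peak. In the whole ZT10 list this held for 6773 of 21370, a larger share.

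Ranks rest on the same scores but not on their scale, and each of the 504 sites ranked lower in the ZT22 list. The percentile of a peak is its place in its own list, from 0 for the weakest to 100 for the strongest. The median percentile of the sites was 87.1 in the ZT10 list and 63.6 in the ZT22 list, and the fall at single sites had a median of 22.5 points, with quartiles at 15.9 and 31.5. It exceeded 10 points at 447 sites and 50 points at 34. At the 4321 other pairs with a ZT10 score of 2.5 or more, the median percentiles were 88.2 and 90.4, with a median fall of -0.11. Of the 67 sites among the 1000 strongest ZT10 peaks, 11 were also among the 1000 strongest ZT22 peaks. For the other pairs these numbers were 895 and 726.

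Of the 10 largest falls in rank, 5 were at sites among the 10 largest ratios. The site at chr16:31868162-31868361 fell from percentile 85.5 to 2.26, by 83.3 points, and the site at chr11:95640293-95640492 from 96.7 to 18.1, by 78.6 points. The pair on chromosomes 7 and 8 with scores of 3.1 and 1.1 each lost 77.9 points. The site at chr7:128315289-128315488 lost 71.5 points. The other five of the 10 were not among the largest ratios. That at chr9:20648967-20649166 scored 2.6 and 1.0 and lost 77.1 points. Sites at chr14:74579171-74579370 and chr3:152333939-152334138 scored 2.9 and 1.1 and lost 74.6 points each. Sites at chr12:16679025-16679224 and chr8:27219854-27220053 scored 2.6 and 1.1 and lost 70.2 points each. In 2 of these the ZT22 peak was well displaced, by 154 bp on chromosome 3 and by 173 bp on chromosome 8. At the other end, the site with the highest score of all, on chromosome 9, lost 0.205 points.

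**Figure D2:**
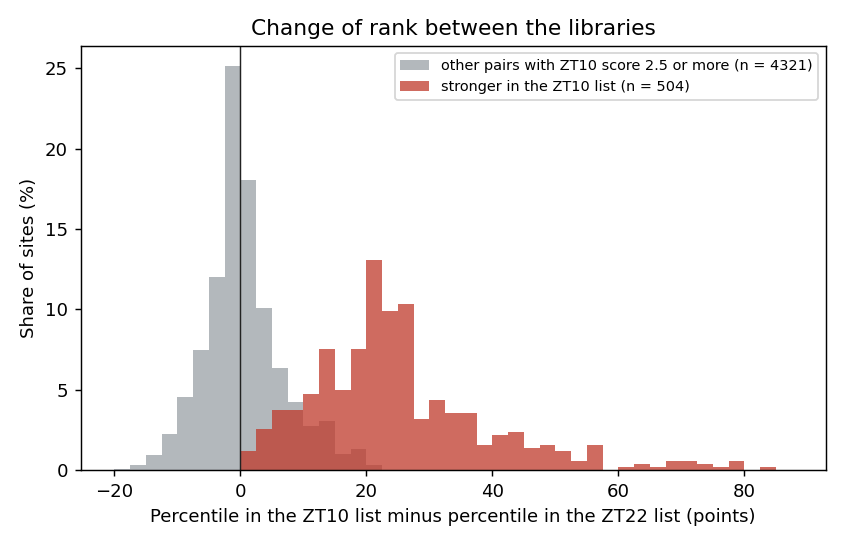
Percentile of each site in the ZT10 list minus its percentile in the ZT22 list (x axis, points), as a share of sites (y axis, percent), for the 504 sites and the 4321 other pairs with a ZT10 score of 2.5 or more. The rule used the scores behind these ranks; the 504 sites lie above 0, with a median of 22.5 points, and the other pairs centre on -0.11.

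The set ends within a continuous range of scores, with no gap at either threshold. Exactly at the ratio of 1.5 there were 26 sites. Those with the highest ZT10 scores were at chr18:61509056-61509255 (6.0 and 4.0), chr2:32526160-32526359 (5.1 and 3.4) and chr5:125342242-125342441 (4.5 and 3.0). Just outside lay chr4:128486067-128486266 (5.5 and 3.7, a ratio of 1.49), chr13:64258074-64258273 (5.2 and 3.5, also 1.49) and chr6:72513755-72513954 (4.3 and 2.9, 1.48). At the lower limit of the ZT10 score, 42 sites scored exactly 2.5. Because scores were deposited with 1 decimal, some sites could fall on either side: 376 of the 504 kept a ratio of 1.5 with both scores moved by 0.05 against it.

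The share of pairs that met the rule was lower among the strongest ZT10 peaks. At ZT10 scores from 2.5 to below 3 it was 11.3% (95% interval 9.83 to 12.9), with 187 of 1652 pairs. It was 12.0% (10.2 to 14.1) from 3 to below 3.5, 11.1% from 3.5 to below 4 and 9.50% from 4 to below 5. Above that it was 6.42% (4.02 to 9.65) from 5 to below 6, 4.73% (2.07 to 9.11) from 6 to below 7 and 6.55% (3.31 to 11.4) at 7 or more, where 11 of 168 pairs met it. Pairs stronger in the ZT22 list were likewise rarer at high scores, with a share that went from 5.14% of pairs with a ZT22 score from 2.5 to below 3 to 1.42% at 7 or more. At every one of the 7 levels the share was higher toward ZT10, also with scores rescaled or ranks made equal. The levels divide the scores that the rule used, so their number is no separate support for an excess toward ZT10. The intervals here and below are exact Clopper-Pearson or order-statistic intervals over sites, which express only the number of sites counted and say nothing of variation among mice.

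The position of the peaks was not part of the rule beyond the overlap. Partner peaks at these sites were somewhat less closely aligned than at the other strong pairs. Their centres lay a median of 22 bp apart (19 to 24), against 15 bp (14 to 15) at the 4321 other pairs with a ZT10 score of 2.5 or more and 18 bp (15 to 22) at the 201 pairs stronger in the ZT22 list. Centres were more than 50 bp apart at 95 of the 504 sites, or 18.8% (15.5 to 22.5), against 9.79% (8.92 to 10.7) and 14.4% (9.88 to 20.1). Over all 14578 pairs, whatever their score, the median offset was 19 bp. Their share over 50 bp was 15.6% (15.0 to 16.2), with an interval that overlapped that of the sites. At 6 sites the position was identical, and at 19 the centres were more than 100 bp apart. The widest offset was 198 bp, at chr18:46853518-46853717, where the 200 bp peaks barely touched. Alignment was closer at strong pairs in general: where scores differed by less than 1.5 times, the median offset was 21 bp where the geometric mean of both scores was below 2 and 10 bp where it was 4 or more.

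Within broad classes of mean score, wide offsets were more frequent at the sites than at pairs of like score where the mean was 3 or more. Sites were sorted by the geometric mean of their scores and set beside pairs whose scores differed by less than 1.5 times. With a mean from 2 to below 2.5, where 220 of the 504 sites lie, centres were over 50 bp apart at 18.2% of the sites (13.3 to 23.9) and at 16.6% of the other pairs (15.1 to 18.3). Below 2 these shares were 26.9% (16.8 to 39.1) of 67 sites and 18.0% (17.1 to 19.0) of 6803 pairs. There the rule, with its ZT10 score of 2.5 or more, admits only sites with a low ZT22 score. From 2.5 to below 3 the shares were 13.8% and 12.3%. From 3 to below 4 they were 20.5% (12.0 to 31.6) of 73 sites and 9.50% (8.02 to 11.2) of 1410 pairs. At 4 or more, this held at 7 of 35 sites (interval 8.44 to 36.9%) and at 4.91% (3.72 to 6.34) of 1120 pairs. Mean scores were not matched within the classes, and the last class has no upper limit. At the same mean, the weaker peak of a site also scores lower than the weaker peak of a pair of like score. The classes therefore do not match the weaker peaks. In the lowest class, means began at 1.61 at the sites, whereas those of all pairs began at 1.0. The median offsets were 15 bp in both groups at a mean from 3 to below 4, and 16 bp (12 to 32) and 10 bp (9 to 11) at 4 or more. Pairs stronger in the ZT22 list had centres over 50 bp apart at 35.7% (18.6 to 55.9) of 28 below a mean of 2. In the next classes upward this held at 12.8% of 94, 8.33% of 48, 13.0% (2.78 to 33.6) of 23 and 0 of 8. A more distant centre means that the 2 peaks cover less of the same DNA, and how far this bears on their scores was not tested.

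**Figure D3:**
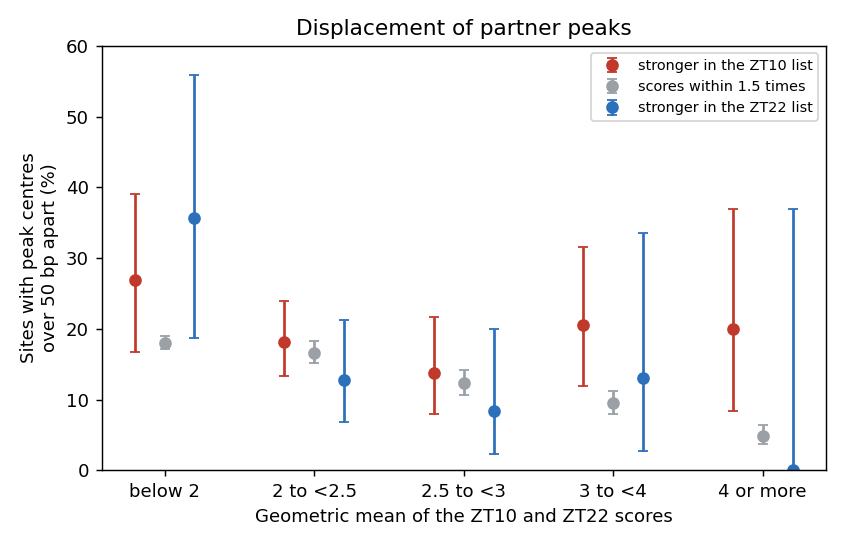
Share of sites whose ZT10 and ZT22 peak centres lie over 50 bp apart (y axis, percent, with exact 95% intervals) by the geometric mean of both scores (x axis). The sites stronger in the ZT10 list (red) come to 20.5% of 73 and to 7 of 35 sites in the upper classes, where pairs of like score (grey) come to 9.50% and 4.91%; the pairs stronger in the ZT22 list (blue) have wide intervals.

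Some sites had a second peak close by. Within 1 kb, 109 of the 504 sites (21.6%, 18.1 to 25.5) had another ZT10 peak and 107 (21.2%, 17.7 to 25.1) another ZT22 peak. At the 4321 other strong pairs, 825 and 864 had one. At 47 sites (9.33%, 6.93 to 12.2) a ZT22 peak within 1 kb scored higher than the site's own ZT22 partner, which the rule had chosen to be low. The pairs stronger in the ZT22 list, chosen to be low at ZT10, had such a ZT10 peak at 17 of 201 (8.46%, 5.00 to 13.2). At 6 of the 47 sites such a ZT22 peak scored at least as high as the site's ZT10 peak. When each list was represented by its highest score within 1 kb, 471 of the 504 sites still met the rule, 33 did not, and 3 of them had the higher score at ZT22.

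Within 5 kb, neighbours were about as frequent as at other strong sites. Another ZT10 peak was found within 5 kb of 49.2% of the sites (44.8 to 53.7) and another ZT22 peak within 5 kb of 55.2% (50.7 to 59.6). The other strong pairs had 51.3% (49.8 to 52.8) and 53.8% (52.3 to 55.3), with overlapping intervals for each list. The pairs stronger in the ZT22 list had fewer, with 38.8% (32.0 to 45.9) and 40.3% (33.5 to 47.4).

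The peaks around the sites came from the same 2 libraries and were taken whatever their own score. Shared sites 1 to 5 kb away had a median log2 ratio of ZT10 to ZT22 score of 0.13 (0.09 to 0.19), over 188 such neighbours, of which 12 were themselves among the 504. Around the other strong pairs it was 0.08 (0.07 to 0.10), and around the pairs stronger in the ZT22 list 0.03 (-0.14 to 0.17), over 50 sites. Of those 188 neighbours, 64.4% (57.1 to 71.2) scored higher at ZT10, against 56.2% (53.7 to 58.7) around the other strong pairs. The medians thus came in the order of the groups, yet their intervals overlapped. At 5 to 20 kb they were 0.09, 0.06 and 0.00. Farther out, at 20 to 100 kb, the medians around the sites and around the other strong pairs were both 0.07, and that around the pairs stronger in the ZT22 list was 0.00 (0.00 to 0.05). At 100 to 500 kb they were 0.07 (0.06 to 0.09), 0.06 (0.05 to 0.07) and 0.05 (0.00 to 0.07). Around all one-to-one pairs the median at 100 to 500 kb was 0.06 (0.05 to 0.07). The sites and the other strong pairs were thus level at 20 to 100 kb. At 100 to 500 kb the intervals of the groups overlapped, so their order there is not established.

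Peaks listed in 1 library alone showed no steady order of the groups. At 1 to 5 kb from the sites ZT10 made up 41.5% (33.4 to 49.9) of them, against 42.1% around other strong pairs and 52.0% (37.4 to 66.3) around the pairs stronger in the ZT22 list. At 5 to 20 kb from the sites there were 193 ZT10-only and 211 ZT22-only peaks, so that ZT10 made up 47.8% (42.8 to 52.8). Around the other strong pairs it made up 41.2% (39.4 to 43.0) and around the pairs stronger in the ZT22 list 32.1% (24.2 to 40.8). Around all one-to-one pairs it made up 41.3% (40.2 to 42.5). In the full lists, 6773 ZT10 peaks and 9483 ZT22 peaks were listed in 1 library alone. At 20 to 100 kb the shares were 40.5% (38.0 to 43.0), 41.5% (40.4 to 42.6) and 44.9% (40.7 to 49.2). The share was thus highest around the sites at 5 to 20 kb and lowest around them at 1 to 5 and at 20 to 100 kb. At 100 to 500 kb all 3 shares lay between 41.4% and 41.6%.

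**Figure D4:**
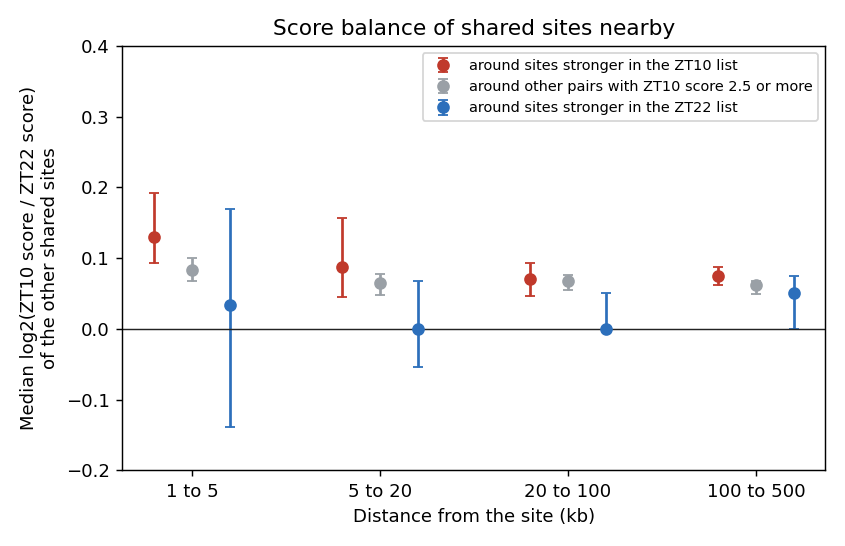
Median log2 ratio of ZT10 to ZT22 score (y axis, with 95% order-statistic intervals) of other shared sites, by their distance (x axis, kb) from sites stronger in the ZT10 list (red), other pairs with a ZT10 score of 2.5 or more (grey) and sites stronger in the ZT22 list (blue). At 1 to 5 kb the medians are 0.13, 0.08 and 0.03 with overlapping intervals, and from 20 to 100 kb red and grey are at 0.07 and blue at 0.00. From 100 to 500 kb they are 0.07, 0.06 and 0.05.

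Of the 504 sites, 30 had another such site within 10 kb, in 15 groups of 2, and the other 474 had none. Strong shared peaks 1 to 5 kb from a site were themselves among the 504 at 12.1% (6.42 to 20.2), against 10.1% (8.06 to 12.4) around the other strong pairs. At 5 to 20 kb these shares were 13.0% (8.54 to 18.8) and 8.79% (7.37 to 10.4), with overlapping intervals at both distances. The groups named here were picked after their values were seen. On chromosome 12, sites at 8003662 to 8003861 (6.5 at ZT10 and 3.4 at ZT22) and at 8004481 to 8004680 (5.2 and 3.3) started 819 bp apart. On chromosome 10, sites at 79340030 to 79340229 (4.9 and 2.9) and at 79340367 to 79340566 (4.0 and 2.1) started 337 bp apart. Whether peaks this close are parts of 1 broader region was not tested.

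Wider groups included strong and strongly unequal sites. On chromosome 17, the site at 28006869 to 28007068 scored 6.4 and 2.6, a ratio of 2.46, and one 8519 bp further on, at 28015388 to 28015587, scored 3.9 and 2.6. On chromosome 6, the site at 47765148 to 47765347 named above lay 5060 bp from another at 47760088 to 47760287, which scored 2.8 and 1.2. Both of these had ratios above 2, at 2.79 and 2.33. On chromosome 14, sites at 24320725 to 24320924 (4.5 and 2.5) and at 24322622 to 24322821 (4.4 and 2.8) started 1897 bp apart. The third strongest site of the set, at chr5:139625773-139625972, had a weaker companion at 139620209 to 139620408 that scored 2.9 and 1.8.

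In windows of 1 Mb, the sites fell into 282 windows with 1 site, 75 with 2, 18 with 3, 2 with 4 and 2 with 5. The window chr17:28000001-29000000 held 5 sites among 19 pairs with a ZT10 score of 2.5 or more, and the median ratio of all its 36 pairs was 1.20. The window chr19:4000001-5000000 held 5 among 16, with a median ratio of 1.14, and chr6:29000001-30000000 held 4 among 5, also with 1.14. None of these 3 held a pair stronger in the ZT22 list, but such pairs were only 4.6% of all pairs with a ZT22 score of 2.5 or more. The window chr10:79000001-80000000 held 4 among 20 and 1 pair in the other direction. Its median ratio was 1.03, against 1.04 over all one-to-one pairs. The medians of these windows include the sites for which they were picked. On chromosome 6 the 4 sites were led by one at 29297823 to 29298022, which scored 6.0 at ZT10 and 2.9 at ZT22. These windows, too, were picked for their counts.

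The sites were found on every autosome and on X, and their share of the strong shared peaks was similar across the autosomes. Chromosome 11 had the most, 41 of 397 pairs with a ZT10 score of 2.5 or more (10.3%), followed by chromosome 4 with 39 of 340 (11.5%) and chromosomes 5 and 8 with 37 each. The share ran from 7.75% (4.92 to 11.5) on chromosome 1 to 14.9% (9.06 to 22.5) on chromosome 18, where 18 of 121 pairs met the rule. All these intervals contain the overall 10.4%, which also lies within the interval of each other chromosome. Chromosome X had 1 site of 13 strong pairs, at 11610030 to 11610229 with scores of 2.5 and 1.5. On each of the 19 autosomes the share was higher than that of pairs stronger in the ZT22 list, which ran from 2.25% on chromosome 11 to 7.11% on chromosome 10. This held on 17 autosomes with scores rescaled to a median ratio of 1 and on 16 with ranks made equal among the pairs. The chromosomes divide the same scores of the same libraries, so these counts are likewise no separate support for an excess toward ZT10.

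**Figure D5:**
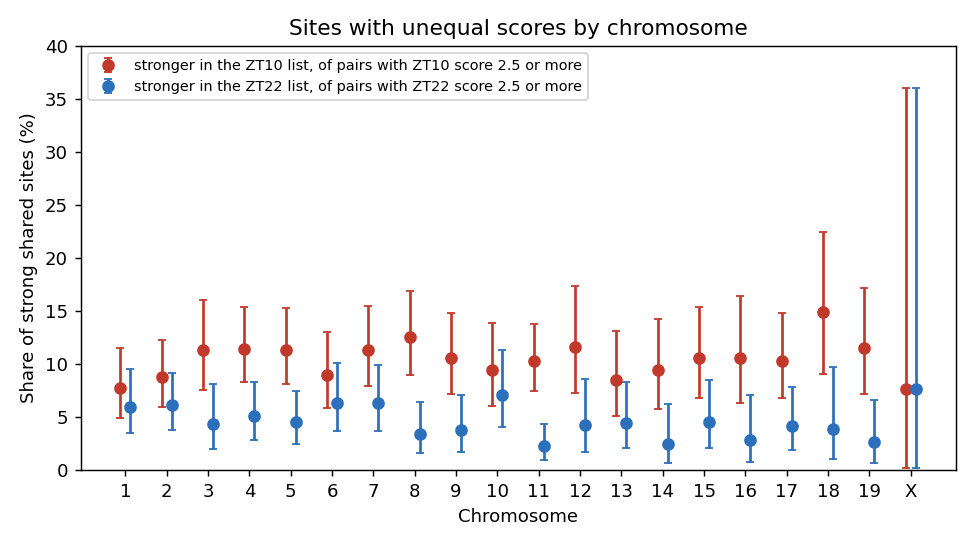
Share of strong shared sites that scored at least 1.5 times higher in the ZT10 list (red) or in the ZT22 list (blue) on each chromosome (x axis), in percent of pairs with a score of 2.5 or more in that list (y axis), with exact 95% intervals. The red points run from 7.75% to 14.9% on the autosomes and lie above the blue ones on each of them (on 16 or 17 after rescaling).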

How the data were processed

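Peaks of 2 libraries, 1 per time and each pooled from 4 mice, were compared. The authors deposited 1 list per library of peaks 200 bp wide, with a score rounded to 1 decimal. The submitters' processing notes name HOMER and mm8. Not given in the sources used here are the scale of the score, the aligner, how peaks were called, whether an input was sequenced, and the read depth. Lists were assigned by their sample labels. Coordinates are 1-based, in mm8, and of the ZT10 peak.

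Of 14602 overlaps, 24 were not one to one and were left out. Tied scores shared their mean rank, and distances to other peaks were taken between starts. No test was made between single libraries. Sites were named by highest ZT10 score (ties by ratio), largest ratio (ties by ZT10 score, then position) and largest fall in percentile (10 each), distance from the ratio threshold (3 on each side) and groups of 3 or more, of which there were none. The sites and rules were chosen with earlier results of these data known. Pairing was tried on simulated lists in which all overlaps were one to one by design, so overlaps of other kinds were not tried. Genes and DNA sequence at the sites were not analysed here, as the gene table given is in GRCm38. Python 3.11.15, NumPy 2.4.6, pandas 2.3.3, SciPy 1.17.1 and Matplotlib 3.10.9 were used.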

Additional observations from a re-analysis of the deposited data

How the results depend on the processing

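Of 126 alternative values over 10 results, 82 stayed within 1.5 times a count or within the interval of a share or median, and 44 did not. The number of sites (504) moved with the limits that define them: a ratio of 2 gave 71, a score of 2 or more 872, a score of 3 or more 317, and a geometric mean of both scores of 2.5 or more 217. Pairs stronger at ZT22 (201) numbered 22, 367, 117 and 79 under these, and 304 with ranks made equal within pairs. The part of all such unequal pairs that was stronger at ZT10 (71.5%) rested on the scale: it was 57.4% with scores rescaled to a median ratio of 1, 54.5% with ranks made equal within pairs and 60.7% with scores of equal rank in the full lists. A ratio of 2 gave 76.3%. It stayed above 50% under each of these. Of strong pairs, 10.4% met the rule. This became 7.92%, 7.54% and 9.53% under the 3 scalings, 7.79% with rounding against the ratio, 9.50% with centres within 50 bp, 11.4% at a score of 2, 1.47% at a ratio of 2 and 5.09% by geometric mean. The median ZT22 percentile (63.6) was 35.7 at a ratio of 2, 44.3 and 71.0 at scores of 2 and 3, and 76.9 by geometric mean. The median offset (22 bp) was 25 bp at a ratio of 2, 16 bp by geometric mean, and 16 bp with centres within 50 bp, which removes wide offsets by construction. Sites with another such site within 10 kb (30) numbered 14 with centres within 50 bp, 2 at a ratio of 2, 55 and 16 at scores of 2 and 3, 12 by geometric mean, 102 with the highest scores within 1 kb (neighbours then share a score), and 18 and 65 for distances of 5 and 50 kb. A neighbouring ZT10 peak (49.2%) was found at 32.7% within 2 kb, 63.1% within 10 kb and 35.2% at a ratio of 2, and a ZT22 peak (55.2%) at 36.3%, 67.1% and 40.8%. The highest share on an autosome (14.9%) was 3.31% at a ratio of 2 and 7.77% by geometric mean. The choices by geometric mean, by equal rank in the full lists and by highest score within 1 kb were added after seeing the data. No paired analysis was possible because there is a single library at either time, so none could be left out.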
